A study of Mus musculus with 18 samples.

Results

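Neutrophils store antimicrobial proteins in granules. A set of 10 mouse genes built around such proteins, out of 37620 genes counted, was followed across tissues and genotypes. The genes were taken by symbol: Mpo, Elane, Prtn3, Ctsg and Ms4a3, grouped here as primary granule genes, and Ltf, Camp, Ngp, Lcn2 and Chil3, grouped as secondary granule genes. Of these, Ms4a3 encodes a membrane protein used as a progenitor marker. Each of the 10 symbols matched 1 Ensembl identifier in the count tables. The libraries came from C57B6/129 hybrid mice of 3 labelled genotypes: wildtype (WT), and mice with inducible histone H3 carrying methionine in place of lysine at residue 9 (K9M) or at residue 36 (K36M). All mice, WT included, were 6 to 8 weeks old and drank water with 2 mg/ml doxycycline, the inducing drug. Polyadenylated RNA was sequenced from Lin-, cKit+ bone marrow cells (BSPC), from intestine and from testes, with 2 libraries for each of the 9 tissue and genotype groups. The numbers in the library titles are read here as mouse numbers: BSPC came from 6 mice, and intestine and testes came from 6 other mice. The labels do not say which H3 gene carries the mutation, so the transgene was not checked, and neither the promoter that drives it nor the length of induction is given there.

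Granulocyte precursors in the marrow make their granules in waves. Primary (azurophil) granules form first, at the promyelocyte stage, and carry myeloperoxidase and the neutrophil serine proteases. Secondary (specific) granules follow in myelocytes and metamyelocytes and carry lactoferrin, cathelicidin and lipocalin 2. Transcription of these genes is known to depend on C/EBP family factors, PU.1, RUNX1 and MYB, with C/EBP epsilon needed for the secondary set.

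The gene counts of a library summed to between 17114164 and 21417915 in BSPC, between 13396303 and 20577661 in intestine and between 16122101 and 20993726 in testes. Kit, the sort antigen, was at 436 and 457 CPM (counts scaled to a common library total) in WT BSPC and at 294 and 296 in K36M BSPC. Among lineage markers that the sort should remove, Ly6g stayed at or under 0.805 CPM and Cd3e at or under 0.322, whereas Itgam was at 109 and 83.5 CPM in WT. The WT intestine library of mouse WT.1476 held 945 counts of the sperm protamine gene Prm1, against 14 to 77 in the other intestine libraries.

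The upstream bases of 7 members are shown to set genes called lower in K36M BSPC (Mpo, Elane, Prtn3, Ltf and Chil3) beside 2 secondary granule genes that were not called (Ngp and Lcn2). Ctsg and Ms4a3, also called lower, and Camp, a secondary granule gene also not called, are not printed. The sequences are the 250 bases before the annotated start in the RefSeq promoter table (GRCm38.p6), printed 5′ to 3′ on the gene's strand. Capitals mark matches, on either strand, to GAGGAA (PU.1), TTGCNNAA (C/EBP) or TATAAA (the TATA box).
Mpo, chr11:87793534-87793783, plus strand: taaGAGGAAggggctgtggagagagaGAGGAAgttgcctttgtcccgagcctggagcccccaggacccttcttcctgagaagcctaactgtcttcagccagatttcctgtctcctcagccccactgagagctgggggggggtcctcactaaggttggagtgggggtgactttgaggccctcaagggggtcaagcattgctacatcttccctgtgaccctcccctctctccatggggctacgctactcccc
Elane, chr10:79886062-79886311, plus strand: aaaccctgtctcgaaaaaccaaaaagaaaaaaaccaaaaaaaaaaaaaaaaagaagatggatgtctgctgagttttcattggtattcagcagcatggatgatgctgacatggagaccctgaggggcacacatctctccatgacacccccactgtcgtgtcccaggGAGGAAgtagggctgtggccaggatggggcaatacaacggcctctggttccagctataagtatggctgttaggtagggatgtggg
Prtn3, chr10:79879417-79879666, plus strand: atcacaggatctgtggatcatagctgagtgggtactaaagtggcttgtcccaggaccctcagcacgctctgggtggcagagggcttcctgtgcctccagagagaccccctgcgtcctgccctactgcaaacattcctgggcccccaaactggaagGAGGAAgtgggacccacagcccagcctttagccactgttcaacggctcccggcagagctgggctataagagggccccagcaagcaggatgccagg
Ltf, chr9:111019042-111019291, plus strand: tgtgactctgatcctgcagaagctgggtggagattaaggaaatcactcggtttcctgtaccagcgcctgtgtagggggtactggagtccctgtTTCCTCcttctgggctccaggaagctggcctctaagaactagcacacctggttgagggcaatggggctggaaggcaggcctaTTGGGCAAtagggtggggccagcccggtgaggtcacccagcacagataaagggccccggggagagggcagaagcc
Ngp, chr9:110419558-110419807, plus strand: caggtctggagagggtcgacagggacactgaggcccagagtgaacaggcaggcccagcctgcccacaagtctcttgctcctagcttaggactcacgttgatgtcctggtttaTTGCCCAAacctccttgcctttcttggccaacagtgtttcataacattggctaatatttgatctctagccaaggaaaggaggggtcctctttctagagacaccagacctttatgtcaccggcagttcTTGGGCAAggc
Chil3, chr3:106167565-106167814, minus strand: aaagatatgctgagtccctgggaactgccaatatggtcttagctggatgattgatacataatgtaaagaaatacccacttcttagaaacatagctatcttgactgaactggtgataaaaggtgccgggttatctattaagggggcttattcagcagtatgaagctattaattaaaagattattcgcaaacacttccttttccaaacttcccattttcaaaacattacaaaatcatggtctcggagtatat
Lcn2, chr2:32387740-32387989, minus strand: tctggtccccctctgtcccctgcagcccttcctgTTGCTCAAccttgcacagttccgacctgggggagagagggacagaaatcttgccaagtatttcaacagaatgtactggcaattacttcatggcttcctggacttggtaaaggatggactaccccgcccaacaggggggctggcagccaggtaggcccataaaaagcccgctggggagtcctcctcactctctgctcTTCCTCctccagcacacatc

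GAGGAA occurred in 6 of the 10 member windows (Mpo, Elane, Prtn3, Ctsg, Ltf and Lcn2), against 23.25% of the 32851 windows in the table. Elane and Prtn3, which lie next to each other, both hold it on the forward strand, starting at positions -85 and -95 from the start. In Mpo it occurs at -247 and at -224. TTGCNNAA occurred in 3 members (Ltf, Ngp and Lcn2), all of them secondary granule genes, against 9.56% of all windows. TATAAA occurred in 1 member (Ctsg) against 12.37%, and TGTGGT (RUNX) in 1 member (Ctsg) against 14.05%. The short MYB letters AACNG occurred in 9 members, and in 74.19% of all windows, and are not capitalised. In Ltf and in Lcn2 an AACNG match overlaps a capitalised one. These are matches of letters in 1 window per gene, and binding was not measured.

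In WT BSPC the primary granule genes were among the abundant transcripts. Mpo, the haem peroxidase that makes hypochlorous acid, took 1.04% and 0.846% of all gene counts in the WT libraries. The 10 members together took 1.81% and 1.44% in WT, 1.64% and 1.58% in K9M, and 0.474% and 0.341% in K36M. Per kilobase of exon, the WT mean was 2731 CPM for Mpo, 2692 for Elane, 1305 for Ctsg, 1127 for Prtn3 and 252 for Ms4a3. On the same scale the secondary granule genes lay lower, at 85.3 for Ngp, 73.5 for Chil3, 60.1 for Camp, 14.3 for Ltf and 11.5 for Lcn2. The WT libraries of neighbours in this order overlap, except for Elane over Ctsg, Prtn3 over Ms4a3, Ms4a3 over Ngp and Camp over Ltf.

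**Figure D1:**
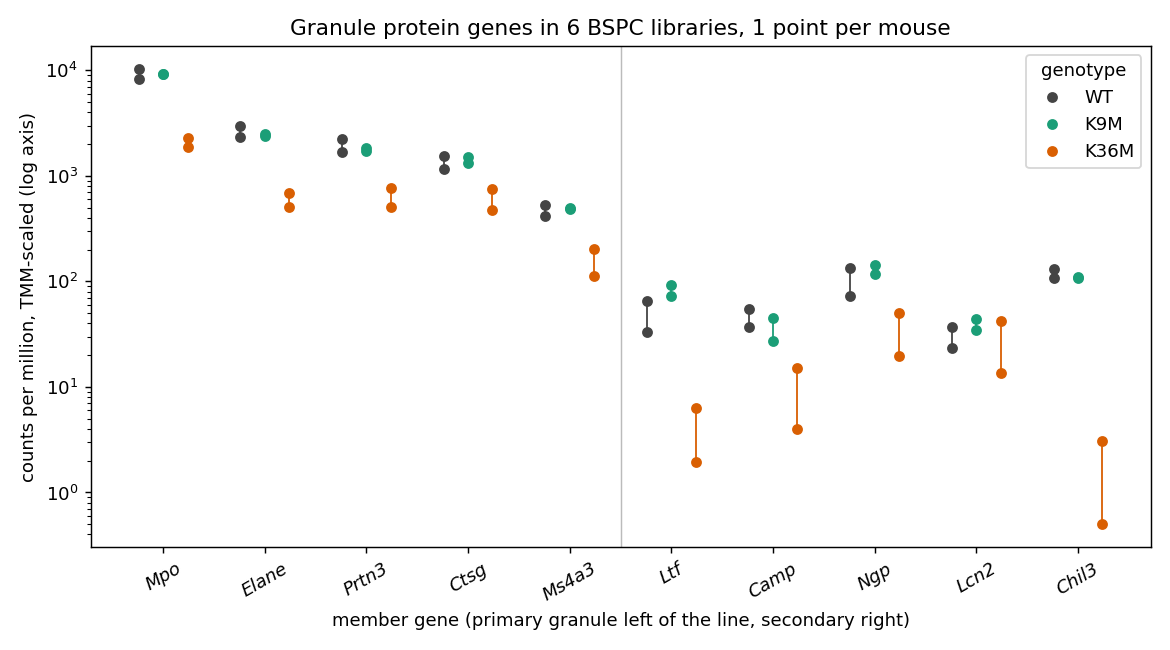
CPM (TMM-scaled, log axis) of the 10 genes in the 6 BSPC libraries, 1 point per mouse, with a line joining the 2 mice of a genotype. The K36M points of Lcn2 span the WT points, and those of each other gene lie below both WT points.

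K36M BSPC had less RNA of all 5 primary granule genes and of 2 of the 5 secondary ones than WT BSPC. In all, 7 of 10 members passed the test as lower (edgeR quasi-likelihood test over all 14604 genes tested, Benjamini-Hochberg adjusted p under 0.05), and none was higher. Of all genes tested, 24.6% were called lower. The members' median log2 fold change was -1.88, against -0.02 over all genes tested. In 9 of 10 members both K36M libraries lay below both WT libraries. This is a description only, as the share of all genes so placed was not computed. In bulk RNA, fewer cells of a type and less RNA per cell cannot be told apart.

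Mpo was at 10366 and 8335 CPM in WT (mice WT.1262 and WT.1266) and at 2305 and 1864 CPM in K36M (mice 1310 and 1312). The groups do not overlap, and both K36M libraries lie far under the lower WT library. The K36M level was 4.48-fold lower, a log2 fold change of -2.17 ± 0.15 (SE; adjusted p = 0.000428, edgeR). Elane, neutrophil elastase, a serine protease that degrades bacterial and matrix proteins, was at 2976 and 2322 CPM in WT and at 694 and 507 CPM in K36M. Its change was nearly that of Mpo, at -2.14 ± 0.20 (adjusted p = 0.0013, edgeR).

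Prtn3, proteinase 3, a serine protease beside Elane on chromosome 10, was at 2222 and 1682 CPM in WT and at 770 and 505 CPM in K36M. The log2 fold change was -1.61 ± 0.26 (adjusted p = 0.00843, edgeR). Ctsg, cathepsin G, the chymotrypsin-like member of the protease set, fell least of the primary genes. It was at 1535 and 1160 CPM in WT and at 753 and 478 CPM in K36M, a change of -1.13 ± 0.28 (adjusted p = 0.031, edgeR). Ms4a3, a multi-pass membrane protein used to mark granulocyte-monocyte progenitors, was at 530 and 421 CPM in WT and at 205 and 113 CPM in K36M. It fell by 1.58 on the log2 scale (SE 0.32; adjusted p = 0.0171, edgeR). Within K36M the lower library of each of these genes was mouse 1312.

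Among the secondary granule genes, Chil3 had the largest change. It encodes the chitinase-like secreted protein Ym1 and has a close paralogue, Chil4, so that its counts could be split between copies. Chil3 was at 132 and 108 CPM in WT and at 3.07 and 0.499 CPM in K36M, where it rested on 62 and 9 counts. The change was 64.8-fold, a log2 fold change of -6.02 ± 0.50 (adjusted p = 0.00116, edgeR). Ltf, lactoferrin, the iron-binding protein of specific granules, was at 65.9 and 32.9 CPM in WT and at 6.35 and 1.94 CPM in K36M. Its log2 fold change was -3.55 ± 0.65 (adjusted p = 0.0153, edgeR).

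Camp, the precursor of the cathelicidin antimicrobial peptide, and Ngp, a cystatin-like granule protein, lay lower in both K36M libraries but did not pass the test. Camp was at 54.3 and 36.8 CPM in WT and at 15.2 and 3.99 CPM in K36M (-2.23 ± 0.69, adjusted p = 0.0619, edgeR). Ngp was at 135 and 73.2 CPM in WT and at 50.2 and 19.8 CPM in K36M (-1.57 ± 0.59, adjusted p = 0.105, edgeR). DESeq2 and limma-voom each called 9 of 10 members lower, these genes included. Over all genes, limma-voom called 3502 of the 14604 tested lower. DESeq2 called 3147 lower, but it was given all 37620 genes, of which 23690 had any count in BSPC. Its share over all genes is therefore not comparable with that of the filtered fits. Lcn2, the siderophore-binding lipocalin, overlapped between the groups. It was at 37.2 and 23.3 CPM in WT and at 42.3 and 13.6 CPM in K36M (-0.10 ± 0.61, adjusted p = 0.904, edgeR).

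The calls depended on single mice, and calls over all genes moved as well when 1 library was left out. In those fits the log2 fold change ran from -2.33 to -1.99 for Mpo and from -2.39 to -1.92 for Elane. The range was -1.95 to -1.33 for Prtn3, -1.5 to -0.825 for Ctsg and -2.07 to -1.2 for Ms4a3. For Ltf it was -4.66 to -2.94 and for Chil3 -7.89 to -5.27. At an unadjusted p under 0.05 in edgeR with all libraries, 8 members passed, where 8032 of all 14604 genes tested passed.

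**Figure D2:**
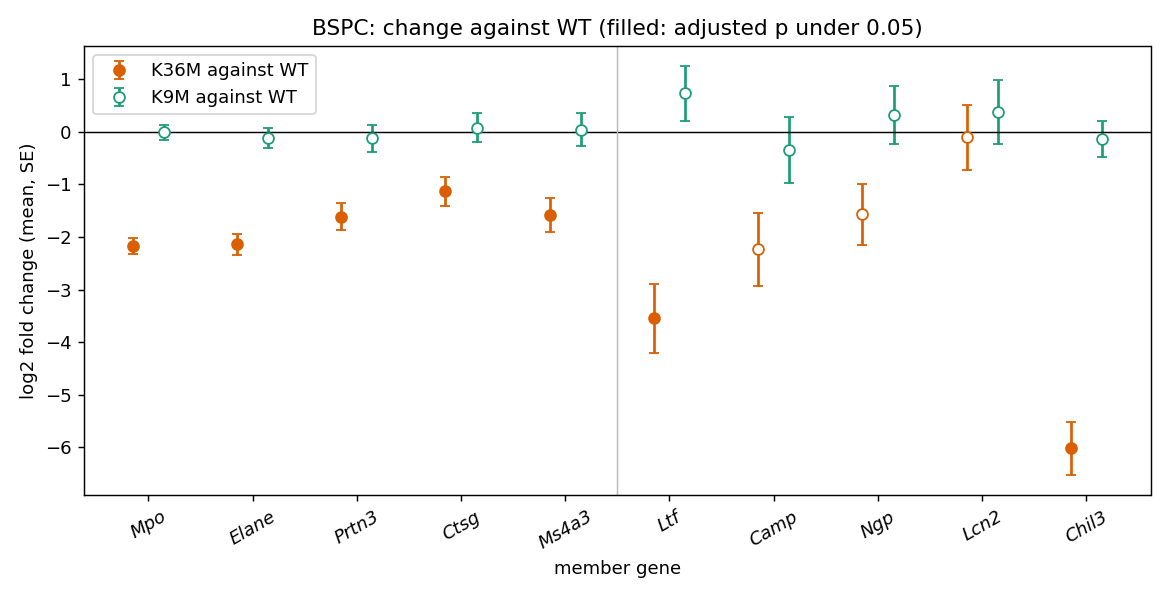
Log2 fold change against WT in BSPC, with its standard error, for K36M (orange) and K9M (green); filled points passed an adjusted p of 0.05. The 7 filled K36M points run from -1.13 (Ctsg) to -6.02 (Chil3), and no K9M point is filled.

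K9M BSPC did not differ detectably from WT BSPC in any member. None of the 10 was called by edgeR, by DESeq2 or by limma-voom, where 1.01% of all genes were called in either direction by edgeR. At an unadjusted p under 0.05, 0 members passed in edgeR and in DESeq2 and 1 in limma-voom. Of all 14604 genes tested, 2079 passed so in edgeR and 2138 in limma-voom. Mpo was at 9307 and 9312 CPM in K9M, between its WT values, with a log2 fold change of -0.01 ± 0.14 (adjusted p = 0.988, edgeR). Elane, at 2497 and 2374 CPM in K9M, changed by -0.12 ± 0.19. Ltf was the 1 member whose K9M libraries both lay above both WT libraries, at 91.7 and 72.5 CPM, with a log2 fold change of 0.73 ± 0.52 (adjusted p = 0.597, edgeR). The other K9M values were 1849 and 1732 CPM for Prtn3, 1521 and 1323 for Ctsg, 494 and 485 for Ms4a3, and 111 and 108 for Chil3. For Camp they were 44.6 and 27.4 CPM, for Ngp 143 and 118, and for Lcn2 43.8 and 34.5. Each of these overlaps the WT range.

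Set against each other, K9M BSPC held more of the same 7 members than K36M BSPC, and 27.8% of all genes tested were higher in K9M. The log2 difference was 2.16 ± 0.15 for Mpo (adjusted p = 0.000324, edgeR) and 5.89 for Chil3 (adjusted p = 0.000947, edgeR). Ltf stood 4.28 higher on that scale (adjusted p = 0.00777, edgeR). Camp, at 1.89 (adjusted p = 0.0869, edgeR), Ngp, at 1.89 (adjusted p = 0.0636, edgeR), and Lcn2, at 0.48 (adjusted p = 0.561, edgeR), did not pass. With 1 library left out, the log2 difference ran from 2 to 2.32 for Mpo, from 5.14 to 7.76 for Chil3 and from -0.131 to 1.52 for Lcn2. This contrast uses the same K36M libraries as the contrast with WT.

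The members mostly differed in 1 direction between the mice of a genotype, given here as a description. All 10 were higher in mouse WT.1262 than in mouse WT.1266, and all 10 were higher in K36M mouse 1310 than in K36M mouse 1312. In K9M, 9 of 10 were higher in mouse 1362, the exception being Mpo. Over the 14604 genes tested, 50.05% were higher in the first WT mouse and 48.9% in the first K36M mouse. The K36M mice differed 1.24-fold in Mpo and 1.81-fold in Ms4a3, the ends of the primary range. For the secondary genes the ratio ran from 2.53-fold (Ngp) to 5.69-fold (Chil3), computed with 1 count added. Only 0.185% of genes had a larger ratio between these mice than Chil3 in that direction, and 13.8% had a larger one than Mpo.

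Summed over the primary members, the level was 17630 and 13919 CPM in WT, 15668 and 15225 in K9M, and 4727 and 3467 in K36M. Summed over the secondary members, it was 425 and 274 CPM in WT, 434 and 360 in K9M, and 117 and 39.8 in K36M. The primary sum was 41.5 and 50.7 times the secondary sum in WT, 36.1 and 42.3 times in K9M, and 40.4 and 87.1 times in K36M. The ratio in K36M mouse 1310 lay inside the range of the other genotypes, and that in mouse 1312 lay above it. With 2 libraries a group these sums were not tested.

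**Figure D3:**
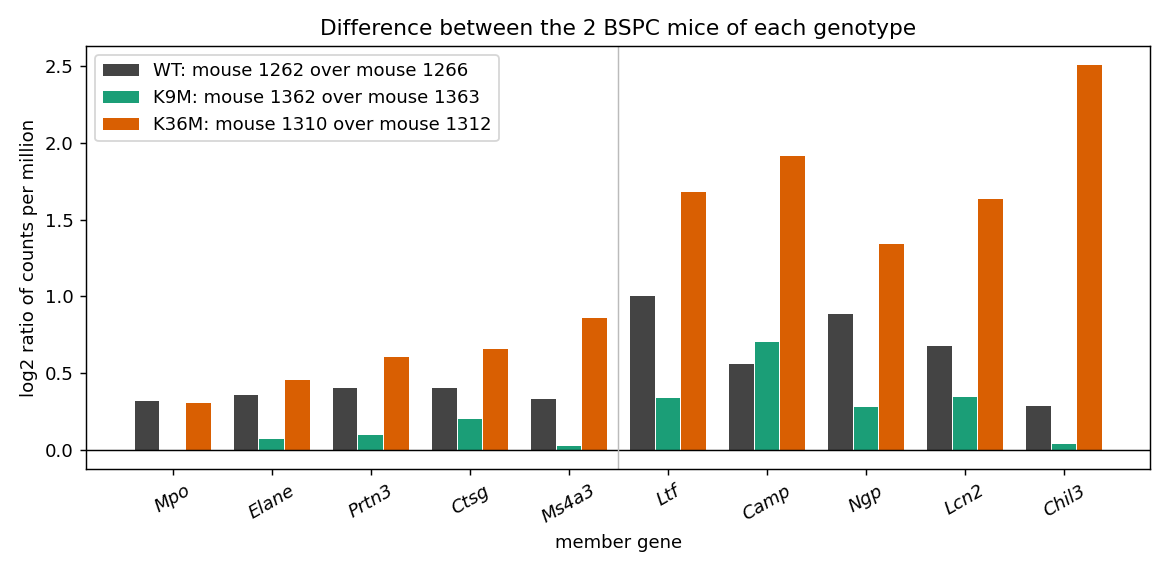
Log2 ratio of CPM between the 2 BSPC mice of each genotype, 1 bar per gene and genotype. The K36M bars are taller for the secondary genes (Ngp at 1.34 to Chil3 at 2.51) than for the primary genes (Mpo at 0.31 to Ms4a3 at 0.86).

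Other granule genes were read from lists by protein role, where 23.5% of all genes were called higher and 24.6% lower in K36M. Of 10 other primary granule and lysosomal genes tested, 6 fell and 1 rose, with a median log2 fold change of -0.79. Lyz2, lysozyme, went from 272 and 202 CPM to 76.5 and 86.9 (-1.54 ± 0.14, adjusted p = 0.000353, edgeR). Prss57, a serine protease related to elastase, fell by 1.23 and Cd68, a lysosomal membrane glycoprotein, by 1.60 on the log2 scale. The lysosomal protease Ctsd rose, from 351 and 331 CPM to 597 and 600 (0.81 ± 0.06, adjusted p = 5.94e-05, edgeR). Ctsb, another lysosomal protease, was at 326 and 280 CPM in WT and at 316 and 304 in K36M.

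Of 18 other secondary and tertiary granule genes, 6 fell and 3 rose (median -0.78). Fcnb, ficolin B, went from 75.0 and 62.6 CPM to 7.68 and 3.55 (-3.60 ± 0.33, adjusted p = 0.00088, edgeR). Slpi, the secretory leukocyte protease inhibitor, fell by 2.31, and Mmp9, gelatinase B, by 1.70 on the log2 scale. The 3 that rose were Olfm4 (1.39), a protein of a subset of specific granules, Adam8 (1.22) and Cyba (0.40), the small subunit of cytochrome b558. Hp, haptoglobin (-0.30), and Cybb (-0.53) were not called. Olfm4 was also the single gene of these lists called in K9M, at 19.2 and 14.7 CPM against 2.82 and 2.21 in WT (2.75, adjusted p = 0.044, edgeR).

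Of 14 genes for granule packaging and protease processing, 8 fell and 2 rose (median -0.33). Srgn, the proteoglycan serglycin that binds granule proteases, went from 858 and 714 CPM to 466 and 419 (-0.83 ± 0.10). Lyst, the gene of Chediak-Higashi syndrome, fell by 1.60 and Rab27a, a GTPase of granule release, by 0.54, whereas Unc13d rose by 0.73 on the log2 scale. Of 7 protease inhibitor genes tested, 2 fell, the cystatins Cst3 (-1.50) and Cst7 (-1.29). Serpinb1a, an inhibitor of elastase, proteinase 3 and cathepsin G, was at 270 and 200 CPM in WT and at 206 and 156 in K36M (-0.38, adjusted p = 0.149, edgeR).

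Of 12 regulators of granule genes, 6 fell and 1 rose. Cebpa, which directs entry into the granulocyte lineage, went from 224 and 182 CPM to 83.0 and 70.9 (-1.40 ± 0.14, adjusted p = 0.000453, edgeR). Cebpd fell by 1.85, Gfi1 by 1.20, Spi1 (which encodes PU.1) by 0.88, Myb by 0.78 and Cbfb by 0.29 on the log2 scale. Klf5 rose, from 2.44 and 2.30 CPM to 10.6 and 8.37 (2.00 ± 0.27). Cebpe, the regulator of the secondary set, was at 48.9 and 43.2 CPM in WT and at 47.2 and 27.4 in K36M (-0.30 ± 0.25, adjusted p = 0.365, edgeR), with mouse 1312 again the lower. Runx1 was at 164 and 130 CPM in WT and at 144 and 141 in K36M.

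**Figure D4:**
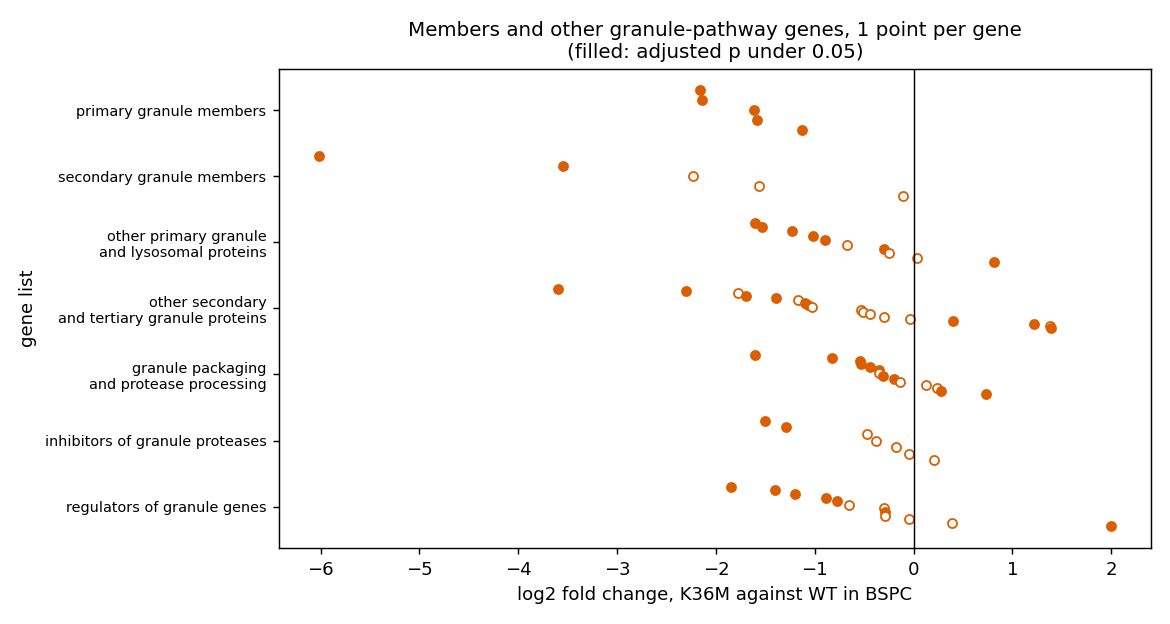
Log2 fold change of K36M against WT in BSPC for the members and for the other granule gene lists, 1 point per gene tested; filled points passed an adjusted p of 0.05. The primary members lie between -2.17 and -1.13, and each of the other granule lists has points on both sides of 0.

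Markers of several other cell types also changed in K36M BSPC, in both directions. Of all genes tested there, 24.6% were called lower and 23.5% higher. Of 15 mature neutrophil markers 9 fell and 3 rose, and their summed level was 1281 to 1633 CPM in WT and 445 to 659 in K36M. S100a8, the most abundant of the calprotectin pair, went from 430 and 340 CPM to 103 and 44.5, mouse 1312 again being lower. Of 10 granulocyte-monocyte progenitor markers 8 fell (summed level 3779 to 4262 CPM in WT, 2132 to 2628 in K36M). Of 10 monocyte markers 8 fell and 1 rose (1872 to 2690 against 521 to 532 CPM), and all 7 mast cell and basophil markers tested fell (489 to 570 against 179 to 196 CPM). Of 14 erythroid markers 10 rose (1589 to 2712 against 3961 to 4287 CPM) and none fell. All 5 leukocyte markers fell (1320 to 1717 against 849 to 971 CPM), as did 4 of 7 eosinophil markers (477 to 626 against 178 to 328 CPM). So did 3 of 4 T and NK cell markers tested (165 to 226 against 68.9 to 94.8 CPM). Most of that sum was Nkg7, at 220 and 157 CPM in WT and at 93.9 and 67.9 in K36M. The T cell genes Cd3e, Cd3d and Cd3g were at or under 0.469 CPM in WT and were not tested. Of 7 megakaryocyte markers 3 rose and 2 fell (166 to 216 against 245 to 283 CPM), and none of 7 B lymphoid markers was called (36.6 to 83.5 against 47.9 to 63.4 CPM). No marker of the neutrophil, progenitor, monocyte or erythroid lists was at 0 in both K36M libraries. The part of cell composition in the members' change was not tested.

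The nearest genes on each side of a member, in annotation order, were read beside it. Of 18 neighbours that are not members, 6 fell and 2 rose in K36M BSPC, where 24.6% of all genes were called lower and 23.5% higher. Outside the Prtn3 and Elane pair, Plppr3 fell by 0.53 on the log2 scale and Cfd was not called (-0.12). Ctsg lies between Mcpt8, a basophil protease gene (-2.47), and Gzmb, granzyme B (-4.25), both lower in K36M. Ms4a3 is next to Ms4a2 (-1.97), the Fc epsilon receptor beta chain gene. Mpo lies between Tspoap1, at 0.01, and Gm11505, which fell by 2.12 from 1.74 and 1.7 CPM in WT. Beside Chil3, 2010016I18Rik fell by 1.55 from 0.61 and 0.644 CPM in WT. Beside Lcn2, 1110008P14Rik rose by 1.19. Ltf, Camp and Ngp lie on chromosome 9, each with its own neighbours, none of which fell, and Cdc25a beside Camp rose by 0.30.

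The genes most like the mean primary profile over the 6 BSPC libraries, by the root mean square difference of centred log2 CPM, were Anxa1, Actn1, Wfs1, Gstm1, Trim30b and Alas1. Their differences ran from 0.0806 to 0.104 log2 units, against a median of 0.845 over 10792 genes compared. For the mean secondary profile they were Acot1, Pkib, Fgf3, Cdh1, Prom1 and Acvr1, at 0.218 to 0.397 against a median of 1.54. The members' own distances from these means ran from 0.0873 (Prtn3) to 0.262 (Ctsg) in the primary set and from 0.426 (Camp) to 1.63 (Chil3) in the secondary set.

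Outside the marrow most members had few counts. In intestine 2 of 10 (Ltf and Lcn2) and in testes 3 of 10 (Mpo, Lcn2 and Chil3) passed the count filter. Ms4a3 had 0 counts in all 6 intestine libraries, where 3 counts would be 0.146 to 0.224 CPM. Elane, Prtn3, Ctsg and Camp had at most 4 counts in any intestine library.

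In intestine, Ltf was higher in K36M. It had 15 and 10 counts in WT (mice WT.1476 and WT.1477), 9 and 13 in K9M (1516 and 1519) and 264 and 115 in K36M (1485 and 1553), or 0.728 and 0.678, 0.466 and 0.743, and 19.7 and 6.98 CPM. Both K36M libraries lie above the rest and well apart from each other. The log2 fold change was 4.23 ± 0.61 against WT (adjusted p = 0.00674, edgeR), where 11.7% of genes were called higher. The K9M level against K36M was -4.45 on that scale (adjusted p = 0.00597, edgeR), where 12.2% of genes were called lower. The value against WT was 4.26 without mouse WT.1476 and 4.16 without mouse WT.1477. That between K9M and K36M was -4.13 without K9M mouse 1516 and -4.79 without K9M mouse 1519. In each of these fits the Ltf call was lost, and calls over all genes fell as well.

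Lcn2 in intestine was at 0.776 and 0.0678 CPM in WT, 0.207 and 0.286 in K9M and 0.971 and 3.64 in K36M, on 1 to 60 counts per library. Both K36M libraries lie above the rest, and the WT libraries are far apart from each other. The higher WT value came from mouse WT.1476, whose intestine library held the 945 counts of Prm1. In WT testes Lcn2 was at 78.1 and 99.0 CPM. The part of testis RNA in that intestine value was not tested. The log2 fold change of K36M against WT was 2.37 ± 1.02 and did not pass the test (adjusted p = 0.139, edgeR). With 1 library left out it ran from 1.11 to 4.94. Ngp, under the filter, had 0 and 1 counts in WT, 2 and 1 in K9M and 7 and 16 in K36M. Between K9M and WT no member was called, where 0.211% of genes were called, and at an unadjusted p under 0.05 the count was 0. Of the 15 mature neutrophil markers, S100a8 and S100a9 had at most 2 counts in any intestine library, and Retnlg, Cxcr2, Ly6g and Fpr2 were at 0 in all 6. Others on that list were present. Mxd1 was at 837 and 1038 CPM in WT and fell by 1.97 on the log2 scale in K36M (adjusted p = 0.0041, edgeR). Anxa1 was at 0.194 and 0 CPM in WT and at 1.79 and 2.67 in K36M (4.28, adjusted p = 0.0529, edgeR). Other marker lists differed between WT and K36M intestine in both directions. The summed leukocyte markers were at 55.7 to 61.4 CPM in WT and at 12.4 to 23.9 in K36M, and the T and NK cell markers at 301 to 308 and at 26.5 to 39.9. The mast cell and basophil markers summed to 4.802 to 5.22 CPM in WT and to 63.1 to 143 in K36M, where 5 of the 9 (Cpa3, Mcpt8, Prss34, Ms4a2 and Fcer1a) were at 0 in both libraries. Of the epithelial markers, the goblet cell mucin Muc2 fell by 4.35 (adjusted p = 0.00152, edgeR) and the stem cell marker Lgr5 rose by 3.07 on the log2 scale (adjusted p = 0.0222, edgeR). The part of these markers in the Ltf result was not tested.

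In testes, Lcn2 was the abundant member. It was at 78.1 and 99.0 CPM in WT, 110 and 175 in K9M and 96.1 and 117 in K36M, and scaled by library totals alone its lowest testes value (80.8 CPM) lay above its highest BSPC value (44.5 CPM). It passed no test there: the log2 fold change was 0.27 ± 0.25 in K36M (adjusted p = 0.394, edgeR) and 0.69 ± 0.25 in K9M (adjusted p = 0.9999, edgeR), where 0.0678% of genes were called. Chil3 had 24 and 39 counts in WT, 33 and 34 in K9M and 50 and 70 in K36M. Both K36M libraries lie above the rest. Its log2 fold change against WT was 1.15 ± 0.28 (adjusted p = 0.0165, edgeR), the reverse of its direction in BSPC, where 25.7% of genes were called higher.

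For Chil3, K9M testes against K36M testes gave -1.23 (adjusted p = 0.0132, edgeR), where 25.4% of genes were called lower. The value against WT was 0.991 without mouse WT.1476 and 1.34 without mouse WT.1477. That between K9M and K36M was -1.24 without K9M mouse 1516 and -1.2 without K9M mouse 1519. In each of these fits the Chil3 call was lost, and calls over all genes fell as well. Of 5 germ cell markers in K36M testes, the spermatid genes Prm1, Prm2 and Tnp1 rose, which carried the summed level from 6854 to 7092 CPM in WT to 13487 to 19797 in K36M. The other two fell, Ddx4 by 1.24 (adjusted p = 0.0461, edgeR) and Sycp3 by 1.24 (adjusted p = 0.0299, edgeR) on the log2 scale. The summed leukocyte markers were at 8.54 to 8.88 CPM in WT and at 11.9 to 12.5 in K36M. The part of these markers in the Chil3 result was not tested. Mpo was at 1.98 and 2.25 CPM in WT, 1.77 and 1.49 in K9M and 1.86 and 2.65 in K36M. Its K36M and WT libraries overlap (0.09 ± 0.28, adjusted p = 0.816, edgeR), and both K9M libraries lie below them without passing the test (-0.38 against WT, adjusted p = 0.9999, edgeR). The remaining 7 members had at most 14 counts in any testes library.

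**Figure D5:**
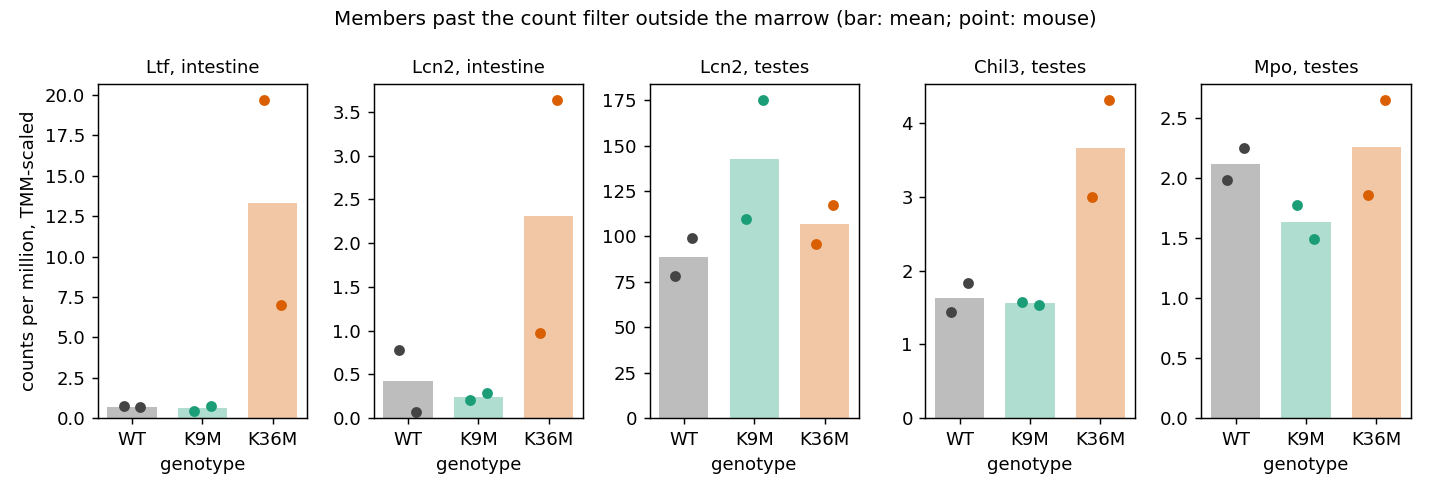
CPM (TMM-scaled) of the members past the count filter in intestine and testes; bars are means of 2 libraries and points are mice, and each panel has its own axis. Ltf in K36M intestine (19.7 and 6.98) and Chil3 in K36M testes (2.998 and 4.32) stand above the other genotypes.

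Between intestine and testes of the same mice, 89.4% of genes were called. Lcn2, the single member past the count filter in both tissues, was lower in intestine. Its intestine counts were 16 and 1 in WT, 4 and 5 in K9M and 13 and 60 in K36M. Its place past the filter in intestine therefore rested on the K36M libraries. The log2 difference of Lcn2, intestine minus testes, was -6.68 ± 0.39 in a fit that leaves the mouse out (adjusted p = 5.58e-08, edgeR). With the mouse as a block it was -6.73 ± 0.38 (adjusted p = 4.92e-06, edgeR). Mpo, Chil3 and Ltf entered the comparison through the tissue where they are high, so that their calls are no result and only their counts are given. Mpo had 3 to 12 counts per library in intestine and 31 to 48 in testes. Chil3 had 4 counts in all over the intestine libraries, all of them in K36M mouse 1485, and 24 to 70 per library in testes. Ltf had 426 counts in intestine, 379 of them in K36M, and 1 in testes. In WT alone it had 25 counts in intestine against that 1 in testes, summed over the 2 libraries of each.

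The effect of K36M itself was compared between tissues for members past the filter in both. Against intestine, Ltf was called (log2 difference of effects, BSPC minus intestine, -7.80 ± 0.96; adjusted p = 0.000721, edgeR), where 21.1% of genes were. Against testes, Mpo (-2.19) and Chil3 (-7.11) were called, where 35.3% of genes were, and Lcn2 was not called against either tissue. This comparison was added after the data were seen.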

How the data were processed

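The values are raw counts of reads per Ensembl gene and library, as the authors deposited them, with STAR, HTSeq and mm9 named in the submitters' processing notes. Versions, annotation and strand setting are not given in the sources used here. Libraries were made from polyadenylated RNA with the SMARTer v3 kit, per the labels' protocols. The 5 entries that name no gene, 34.5% to 49.9% of all entries by library, were left out. Symbols were found for 32897 of 37620 identifiers.

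Counts were tested with edgeR 4.0.16 (TMM factors, filterByExpr, robust quasi-likelihood test on 3 group means within a tissue, 3 residual degrees of freedom), with Benjamini-Hochberg adjustment over all genes tested and a threshold of 0.05. The test was checked on simulated data. Levels are TMM-scaled CPM. CPM per kilobase uses GENCODE M21 exon lengths. Alternatives were DESeq2 1.42.0, limma-voom (limma 3.58.1), other scalings, filters and thresholds, and each library left out. The members and gene lists were chosen with earlier results of these data known. The genes named are the 10 members, and from each list up to 3 called genes of largest change and the 2 most abundant in WT. They also include the nearest tested neighbours and the 6 closest profiles per set. Gfi1, Spi1, Cebpe, Runx1, Olfm4, Adam8, Cyba and the markers given by name were chosen after their values were seen.

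No 2 libraries of a group agreed within sampling noise (chi-square per degree of freedom 2.26 to 59.1). Intestine and testes share mice by number, so the mouse can be a block. Deviations of same-numbered libraries from their group means correlated at 0.025 (WT), 0.0634 (K9M) and -0.0039 (K36M) over 20253 genes. With 2 libraries a group, precision is set by their spread, and 3 counts correspond to 0.14 to 0.224 CPM.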

Additional observations from a re-analysis of the deposited data

Results flagged for a closer look

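Among members past the count filter in both tissues, effects of K36M on 3 differed between tissues in a test of the difference itself, which was added after the data were seen. For Ltf, the K36M effect in BSPC minus that in intestine was -7.80 ± 0.96 on the log2 scale (adjusted p = 0.000721, edgeR quasi-likelihood test over 16785 genes, of which 21.1% were called in either direction). Ltf was lower in 2 of 2 K36M BSPC libraries and higher in 2 of 2 K36M intestine libraries than in either WT library. Leaving out 1 WT or K36M library at a time gave -6.87 to -8.87, each called.

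For Chil3, the K36M effect in BSPC minus that in testes was -7.11 ± 0.70 (adjusted p = 0.000115, edgeR, over 20653 genes, of which 35.3% were called). Without K36M BSPC mouse 1310 the value was -8.98. For Mpo the same difference was -2.19 ± 0.29 (adjusted p = 0.000302, edgeR), with a range of -1.99 to -2.56 when 1 library was left out. Mpo in testes rested on 31 to 48 counts per library. For Lcn2 the difference was -2.45 ± 1.13 against intestine (adjusted p = 0.157, edgeR) and -0.31 ± 0.65 against testes (adjusted p = 0.824, edgeR). Mpo and Ngp against intestine and Prtn3 against testes also passed this test, but on at most 16 counts in any library of the second tissue.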

How the results depend on the processing

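Of the 10 BSPC members, 7 were called lower in K36M than in WT, with 4 at an adjusted p under 0.01 and 3 to 9 with 1 library left out. Against K9M the 7 calls ran from 5 to 10 with 1 library left out. In K9M against WT the count was 0 in BSPC, intestine and testes under all alternatives run. In intestine 1 member (Ltf) was called in K36M against WT, with 3 under no low-count filter and 0 to 1 with 1 library left out. In K9M against K36M it was 1, with 2 by DESeq2, 2 under no filter, 2 with these genotypes fitted alone and 0 to 2 with 1 library left out. In testes 1 member (Chil3) was called in K36M against WT and in K9M against K36M, with 0 in each at an adjusted p under 0.01. With 1 library left out these ran from 0 to 2 and from 0 to 1. A group left with 1 library took its spread from the other groups in the fit. With the mouse as a replicate block, 4 members were called between intestine and testes, as without it, and 4 to 5 with 1 library left out, Mpo, Ltf and Chil3 having entered through 1 tissue.

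Signs turned only for members not called in that comparison. With 1 library left out, K36M against WT in BSPC ran from -1.15 to 0.502 for Lcn2 (0.285 without mouse WT.1262), and K9M against K36M from -0.131 to 1.52. For K9M against WT in BSPC the range was -0.29 to 0.0671 for Elane, -0.312 to 0.0882 for Prtn3, -0.111 to 0.292 for Ctsg (-0.027 without K9M mouse 1362), -0.115 to 0.217 for Ms4a3, -0.0567 to 0.83 for Ngp and -0.269 to 0.0148 for Chil3. The Mpo value there was 0.00222 by limma-voom and 0.00542 with library totals alone, and ran from -0.156 to 0.158 with 1 library left out. For K9M in intestine the ranges were -1.62 to 1.75 for Lcn2 and -0.584 to 0.0825 for Ltf. In testes, Mpo in K36M was -0.0662 with library totals alone and -0.215 to 0.273 with 1 library left out (-0.00408 without mouse WT.1476), and Chil3 in K9M was -0.23 to 0.114. The cause was not tested.

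Counts over all genes also moved. In BSPC, K36M against WT had 7017 calls, 4671 without K36M mouse 1312, 4499 at an adjusted p under 0.01 and 2552 with a 2-fold minimum. K9M against WT had 147, with 336 by DESeq2, 463 under no filter, 46 at 0.01, 28 without K9M mouse 1363 and 619 without mouse WT.1262. In intestine K9M against K36M, 51.4% of calls were higher in K9M, and 40.6% with library totals alone, which moved the median of all genes from -0.03 to -0.16. In testes K36M against WT that scaling moved it from 0.02 to -0.12.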
